A study of Rattus norvegicus with 14 samples.

Results

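The step from day 28 to day 60 of postnatal life was followed in the whole epididymis of Sprague-Dawley rats, by comparing the 3 pools of day 60 with the 4 pools of day 28. These 7 pools are part of a series of 14 pools that also covers day 7 (3 pools) and day 18 (4 pools), each hybridised to 1 Affymetrix RatGene 2.0 ST array. No treatment is named for any group; at day 28 and day 60 the rats fed freely, while younger pups stayed with their mothers. How many rats made up a pool is not given in the sources used here. The members of the comparison were chosen by age label alone, so no measured value entered the choice, and the step was described over 18166 genes, each represented by 1 transcript cluster. Nothing in the labels says that pools of 1 age came from separate litters or days, so p-values measure the spread between these pools, which may be partly technical.

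The epididymis is the long coiled duct in which sperm leaving the testis mature, gain motility and are stored. Its epithelium is built of principal cells, which secrete proteins into the lumen and take up fluid, of clear and narrow cells, which acidify the lumen, and of basal cells, surrounded by smooth muscle, vessels, nerves and immune cells. Around puberty androgens rise, the duct cells leave the cell cycle and finish differentiating, and sperm made in the testis enter the lumen for the first time. Sperm are transcriptionally silent but carry RNAs made earlier in spermatogenesis. Day 28 lies before the first sperm reach the duct and day 60 after it.

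Signals are log2 values after robust multi-array averaging (RMA) by the authors, so a difference of 1 is 2-fold. Levels are given as means ± SD over pools (n = 4 at day 28, n = 3 at day 60) and differences, always day 60 minus day 28, with the SE of the fit. A gene was called higher or lower when its adjusted p was under 0.05 in limma's moderated test, fitted to all 14 arrays with a mean for each age and adjusted by Benjamini-Hochberg over all genes. The signal of genes not thought to be used in this tissue was read from 1344 receptor genes of smell and of the vomeronasal organ. Their 95th percentile, a log2 signal of 4.92, is called the background level here, and 13168 of the 16822 other genes lay above it. Pools of 1 age correlated at 0.989 to 0.994 at day 28 and at 0.993 to 0.994 at day 60, and pools of different ages at 0.977 to 0.981, across genes, which are not independent replicates. Day 28 replicate 2 stood apart: its array median was 5.42, against 5.27 to 5.32 in the other 3 day 28 pools and 5.25 to 5.27 at day 60, and its median over the receptor genes was 3.19, against 2.94 to 3.02 in the other 6 pools. Counts that moved by over 1.5 times without this pool are given beside them.

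Of the 18166 genes, 4550 (25.0%) were called, 2511 (13.8%) higher and 2039 (11.2%) lower at day 60. The counts given below for each list are to be read against these shares. Most changes were small. Among the genes called higher, 1619 differed by under 1.5-fold and 605 by 1.5-fold to 2-fold; among those called lower these numbers were 1582 and 389. Large changes of these genes went mostly upward: 287 genes (1.58%) were at least 2-fold higher and 68 (0.374%) at least 2-fold lower, and 20 genes (0.110%) were at least 8-fold higher while none was 8-fold lower. The split was more even among 17599 clusters without a listed symbol, which are not among these genes. When all clusters were tested, 152 of them were at least 2-fold higher and 118 at least 2-fold lower. Clusters 17640313 and 17640315, which hold identical values, differed by -5.00. The median difference of all genes was -0.02. Without day 28 replicate 2, 2204 genes were called higher and 2255 lower; 2142 and 1801 genes were called in both fits. With each array centred on its median, 2793 genes were called higher and 1104 lower, so the share of calls that were higher was 55.2% as deposited and 71.7% after centring.

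**Figure D1:**
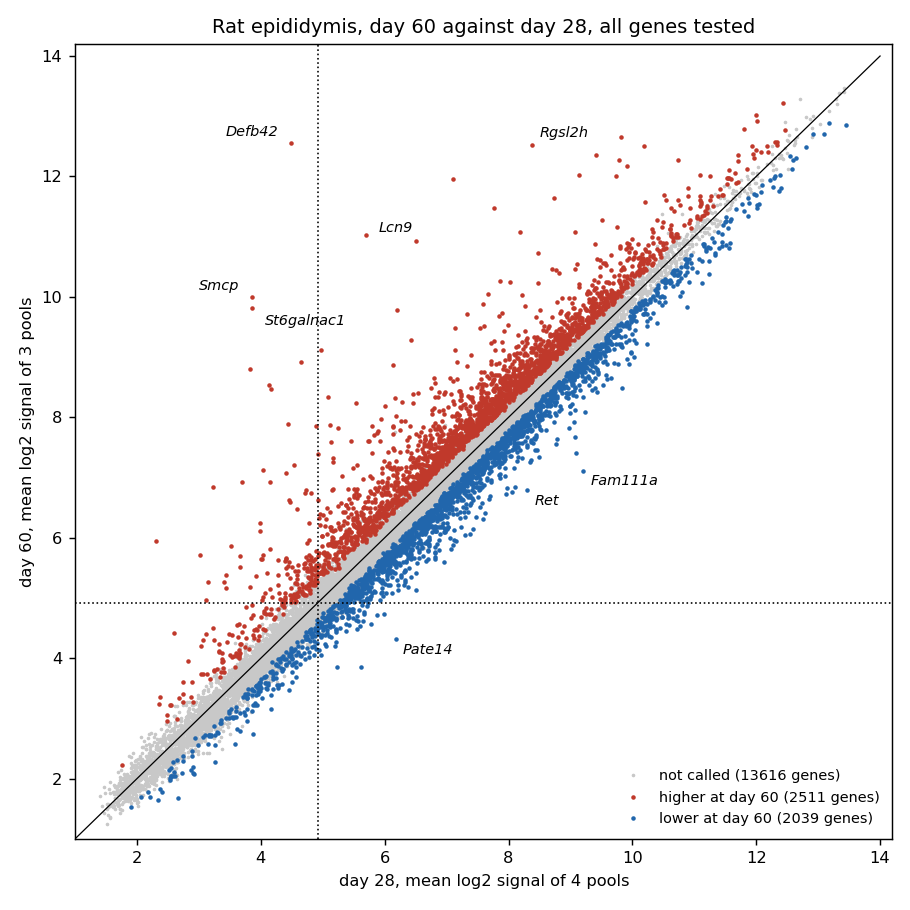
Mean log2 signal at day 28 (horizontal axis, 4 pools) against day 60 (vertical axis, 3 pools); each point is 1 of 18166 genes, red when called higher, blue when called lower and grey otherwise, and dotted lines mark the background level of 4.92. Red points reach much farther from the diagonal than blue points, with Defb42 at the top left, at 4.49 and 12.55.

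The 20 largest rises included luminal secretory proteins, beta-defensins and transcripts of sperm structure. Of these 20 genes, 8 belong to the lists of luminal secretory proteins or beta-defensins and 4 to the lists of sperm proteins. In 12 of them the day 28 mean lay under the background level, so the fold there is a ratio to background. In bulk tissue, fewer cells of a type and less RNA per cell cannot be told apart.

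The largest rise was that of Defb42, a beta-defensin of the epididymal epithelium. Its log2 signal was 4.85, 4.57, 4.37 and 4.18 in the day 28 pools and 12.54, 12.55 and 12.55 in the day 60 pools. The ages did not overlap, all 4 day 28 pools lay under the background level, and the day 60 pools were nearly identical and among the brightest signals of the array. The difference was 8.05 ± 0.173 (adjusted p = 5.07e-13), which is at least 198-fold when day 28 is set to the background level. St6galnac1, a Golgi enzyme that adds sialic acid to O-linked sugar chains, went from 3.97, 4.08, 3.61 and 3.79 to 9.85, 9.78 and 9.81, a difference of 5.95 ± 0.121 (adjusted p = 4.95e-13; at least 29.7-fold). Bpi, a bactericidal protein that binds bacterial endotoxin, went from 6.50 ± 0.182 to 10.92 ± 0.212, 21.4-fold (adjusted p = 7.76e-11). Others of the 20 were Cyss, which differed by 3.64, Ly6al by 3.62, Iqcf3 by 3.10, Cmahp by 3.24 and the nucleotidase Nt5c1b by 3.24, with no overlap of ages.

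**Figure D2:**
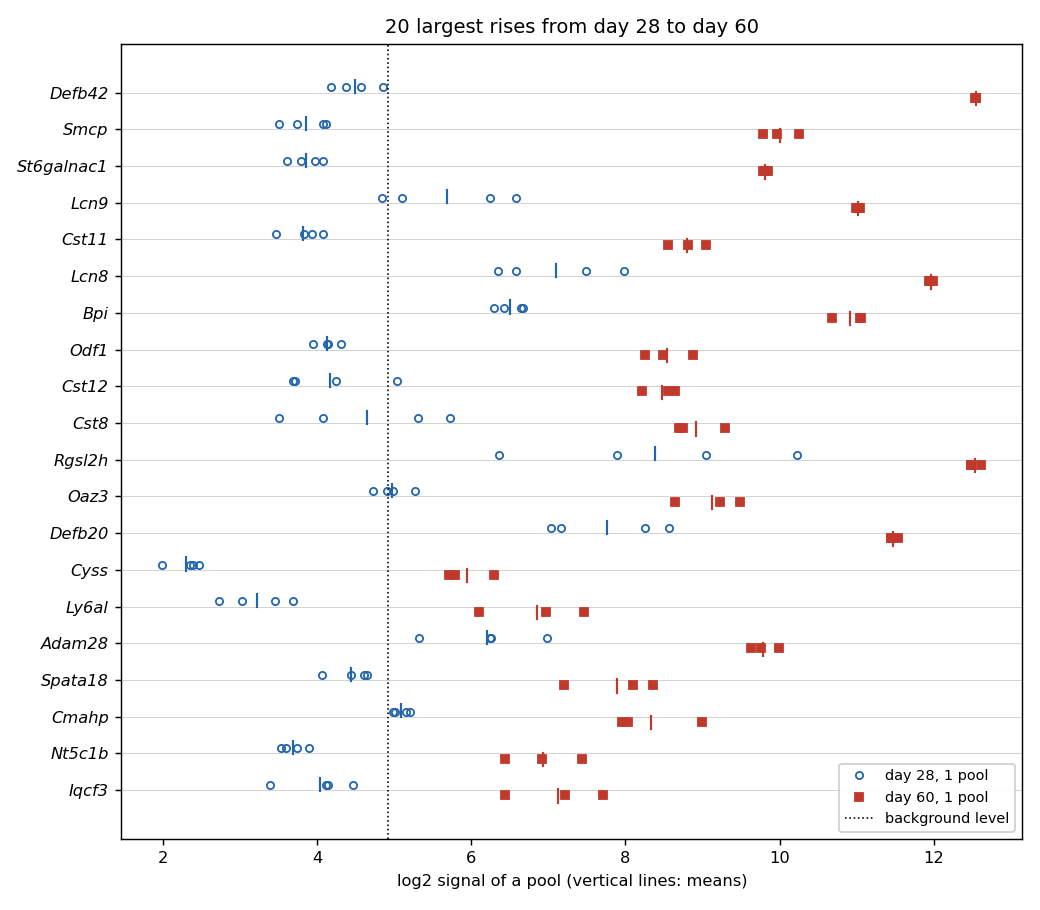
Log2 signal of each pool for the 20 genes with the largest rises; open circles are the 4 day 28 pools, filled squares the 3 day 60 pools, vertical strokes the means and the dotted line the background level of 4.92. No gene shows overlap between ages, and the day 28 circles of Rgsl2h run from 6.36 to 10.23 while its day 60 squares lie between 12.49 and 12.62.

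Many proteins that the duct secretes into the lumen were higher. Of 65 measured members of the list 29 were called higher (44.6%, against 13.8% of all genes) and 2 lower (3.08%, against 11.2%), 17 were at least 2-fold higher, and the median difference was 0.38; 4 were lower after quantile normalization. The list's summed signal, on the linear scale, ran from 139531 to 149065 at day 28 and from 195199 to 200667 at day 60. Lipocalins, small barrel-shaped carriers of lipophilic molecules, were prominent. Lcn9 went from 4.84, 6.58, 6.24 and 5.10 to 11.04, 10.99 and 11.02, a difference of 5.33 ± 0.314 (adjusted p = 5.02e-08). Lcn8 went from 6.35, 7.98, 7.49 and 6.58 to 11.95, 11.99 and 11.94, a difference of 4.86 ± 0.298 (adjusted p = 6.99e-08). Both genes varied widely among day 28 pools, with replicates 2 and 3 above replicates 1 and 4, and hardly at all at day 60. Cystatins, which inhibit cysteine proteases, rose from signals near or under background: Cst11 differed by 4.98 ± 0.146, Cst12 by 4.29 ± 0.261 and Cst8 by 4.26 ± 0.395. Cst8 was 3.51, 5.72, 5.31 and 4.07 at day 28 and 8.70, 9.29 and 8.75 at day 60. Adam28, a membrane protein of the metalloprotease family, differed by 3.59 ± 0.298 (adjusted p = 1.31e-06). Some abundant products of the duct, which mark the labelled tissue, were bright at both ages and were not called: Lcn5 was at 13.41 and 13.47 and Crisp1, which coats sperm, at 11.41 and 11.65 (adjusted p = 0.814 and 0.217; named here after their values were seen).

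The 2 members of that list that fell were Wfdc2 and Eppin, both protease inhibitors of the whey acidic protein family. Wfdc2 was 9.14, 8.91, 9.04 and 8.99 at day 28 and 8.41, 8.19 and 8.06 at day 60, a difference of -0.80 ± 0.0877 (adjusted p = 1.57e-05). Eppin, which binds semenogelin on sperm, went from 12.39 ± 0.0318 to 12.02 ± 0.0393 (-0.38, adjusted p = 0.00328); the mean of its clusters differed by 0.02 instead, so the fall rests on the brighter cluster.

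Beta-defensins, cationic antimicrobial peptides many of which bind to sperm, were often higher. Of 35 measured members 16 were higher (45.7%, against 13.8% of all genes), 4 lower (11.4%, near the 11.2% of all genes) and 13 at least 2-fold higher, with a median of 0.32. Defb20 went from 7.03, 8.57, 8.26 and 7.17 to 11.54, 11.44 and 11.44 (adjusted p = 7.24e-07). Defb2 went from 9.43, 9.25, 7.54 and 8.76 to 11.88, 11.50 and 11.53 (adjusted p = 3.52e-05). Defb11, by contrast, fell from 9.40 ± 0.186 to 8.49 ± 0.134 (-0.91 ± 0.132, adjusted p = 0.000179), with no overlap. Without day 28 replicate 2 only 2 defensins were called lower.

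Several of the rising secretory genes lie side by side on a chromosome, and neighbours had unequal differences. The runs below were chosen after the values were seen, and gene order is that of protein-coding genes in RefSeq (GRCr8). In the cystatin run from Cstl1 to Cst3, 5 of 9 genes were called higher and none lower: Cst11, Cst12, Cst8, Cstdc2 and Cst3 differed by 4.98, 4.29, 4.26, 2.27 and 0.21. Their interleaved neighbours Cstl1, Cstdc1, Cst13 and Cst9l stayed under the background level at both ages and were not called. In the lipocalin run from Lcn8 to Obp2a, 4 of 5 genes were higher, and Lcn5, next to Lcn8, was the exception at 0.06 ± 0.161. Lcn5 lies near the array maxima, 13.63 to 13.78 in these 7 pools, and whether a further rise could be measured there was not tested. In the defensin run that starts at Defb42, the genes Defb42, Defb41, Defb43, Defb30 and Defb44 differed by 8.05, 2.50, 1.76, 0.11 and 0.32, and the last pair was not called. Their day 28 means were 4.49, 9.78, 9.51, 10.03 and 11.21, so only Defb42 started under the background level. In the defensin run beside Defb20, 8 of 12 genes were higher and none lower. Of 7 genes from Ly6g5b to Ly6g6c, which include several small membrane-anchored Ly6 proteins, 3 were higher: Ly6g5b by 2.89 ± 0.217, Ly6g5c by 2.83 ± 0.418 and Ly6g6c by 2.94 ± 0.147. The 4 genes between Ly6g5c and Ly6g6c differed by -0.01 to 0.34 and were not called.

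**Figure D3:**
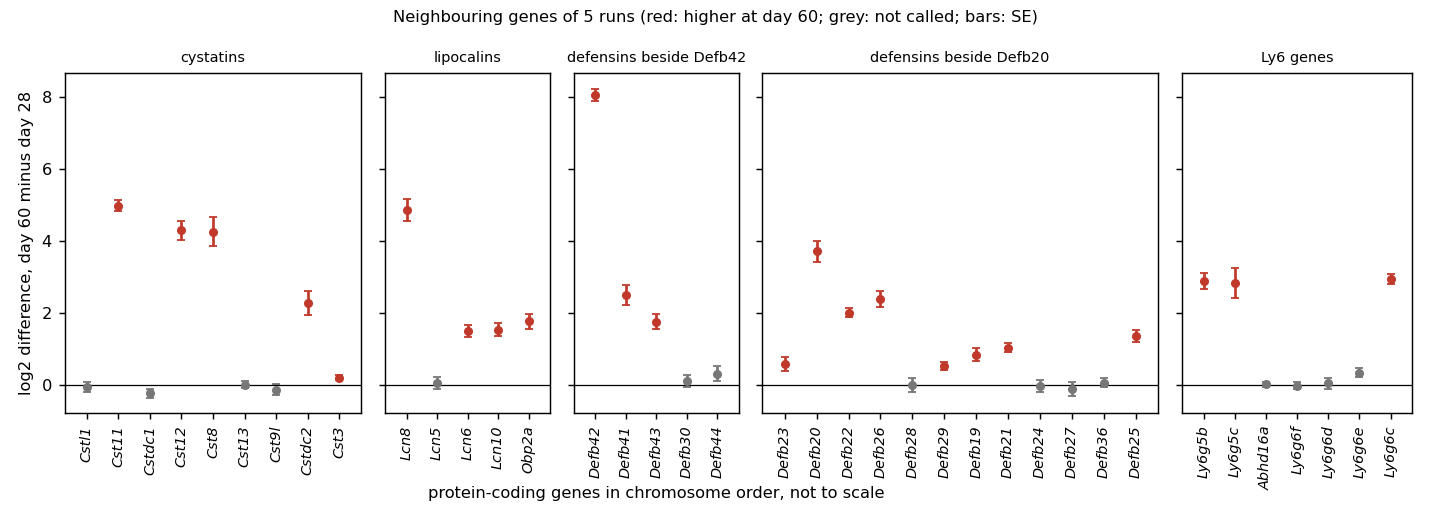
Log2 difference (day 60 minus day 28, vertical axis) of the genes of 5 chromosomal runs in their order along the chromosome, not to scale; points are fitted differences, bars their SE, red points are called higher and grey points are not called. Differences of over 4 stand beside differences near 0, as for Cst8 and Cst13.

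The androgen receptor binds DNA elements built from the hexamer AGAACA. Promoters were taken from RefSeq (GRCr8) as the window from 250 bases before to 50 after the first listed start of each gene, and 14564 of the 18166 genes tested had one. AGAACA, searched on both strands, occurred in the windows of 12 of the 30 called-higher secretory and defensin genes with a promoter (40%), in 22 of all 71 such genes measured (31%) and in 15.9% of the genes tested. In the sperm lists it occurred in 18 of 75 measured genes with a promoter (24%) and in 3 of the 20 called higher (15%). A match is a description of letters, not of binding, and these shares were not tested. The 250 bases before the start of Defb42 and Lcn8, the largest riser and a lipocalin without the hexamer, are shown with AGAACA, or its complement TGTTCT, in capitals.
Defb42 promoter, chr15:41417611-41417860 (minus strand): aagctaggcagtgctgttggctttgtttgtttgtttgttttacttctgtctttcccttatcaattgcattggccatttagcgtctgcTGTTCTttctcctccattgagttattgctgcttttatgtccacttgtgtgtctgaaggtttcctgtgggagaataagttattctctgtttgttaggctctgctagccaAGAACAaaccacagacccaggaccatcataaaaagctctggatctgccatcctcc
Lcn8 promoter, chr3:28865811-28866060 (plus strand): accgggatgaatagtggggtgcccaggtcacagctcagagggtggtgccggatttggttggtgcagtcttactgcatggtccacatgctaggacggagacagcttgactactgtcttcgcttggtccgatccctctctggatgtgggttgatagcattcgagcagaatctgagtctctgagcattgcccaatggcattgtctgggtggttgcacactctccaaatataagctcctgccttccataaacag
Defb42 holds the hexamer at 163 and 55 bases before its start, once on each strand, and the window of Lcn8 holds none.

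Transcripts of late sperm formation were among the largest rises. Smcp, a cysteine-rich protein of the mitochondrial sheath of the sperm tail, went from 3.51, 4.11, 4.07 and 3.74 to 9.79, 10.25 and 9.97, a difference of 6.15 ± 0.157 (adjusted p = 3.92e-12; at least 33.9-fold). Odf1, of the outer dense fibres of the tail, went from 3.95, 4.13, 4.31 and 4.14 to 8.25, 8.88 and 8.49 (4.41 ± 0.143, adjusted p = 6.58e-11). Oaz3, the antizyme of spermatids, differed by 4.15 ± 0.188 and Spata18 by 3.45 ± 0.237. In all of these the day 28 pools lay near or under the background level, and day 60 replicate 1 was the lowest day 60 pool. Of 41 measured tail and motility genes 11 were higher and none lower (26.8%, median 0.11), and 7 were at least 2-fold higher; without day 28 replicate 2, 2 were called lower. Their summed signal ran from 2512 to 2736 at day 28 and from 4501 to 5868 at day 60. Most of these genes are dim: when genes under the median level of the table were left out, 2 tail genes were called higher.

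The proteins that replace histones in the sperm nucleus had 3 of 12 genes higher and none lower (median 0.04). Tnp1 was 4.42, 4.41, 4.38 and 4.42 at day 28 and 6.88, 7.43 and 6.89 at day 60 (2.66 ± 0.151, adjusted p = 3.69e-08). Prm1 was 4.72, 4.92, 4.99 and 5.03 and then 7.53, 7.73 and 6.90 (2.47 ± 0.171, adjusted p = 2.34e-07), and Tnp2 differed by 1.86 ± 0.14. Prm2, the other protamine, was at 6.24 and 6.34 and was not called (adjusted p = 0.575; named after its value was seen). Among 36 acrosome and egg-interaction genes 9 were higher and 1 lower, and 4 were higher with the dim genes left out. Tex101 led them, from 9.50, 9.52, 9.48 and 9.04 to 10.76, 11.07 and 10.81 (1.49 ± 0.183, adjusted p = 4.01e-05), but was already bright at day 28. Adam3a, a sperm surface protein, differed by 0.74 ± 0.109, and Spaca3, a lysozyme-like acrosomal protein, fell from 5.42 ± 0.162 to 4.93 ± 0.0612 (adjusted p = 0.0015).

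Of 33 measured markers of meiotic and earlier germ cells 1 was higher (3.03%) and 3 lower (9.09%, near the 11.2% of all genes). The median was -0.18, and 22 stayed under the background level at both ages. With each array centred none was called lower and the median was -0.11. Their summed signal ran from 1517 to 1597 at day 28 and from 1828 to 1984 at day 60, but without Uchl1 it ran from 854 to 914 and then from 788 to 819. The gene that rose was Uchl1, which neurons also express, from 9.38 ± 0.119 to 10.12 ± 0.11 (adjusted p = 0.000103). Of 19 Sertoli and Leydig cell markers, somatic cells of the testis, 3 were higher (15.8%, near the 13.8% of all genes) and 1 lower (5.26%). They include Cst12, which is also a secretory gene of the duct, and Hsd3b2, a steroid-forming enzyme, which fell from 5.67 ± 0.235 to 4.77 ± 0.0502 (adjusted p = 0.00128). The summed signal of the testis list was 1830 to 2003 at day 28 and 2389 to 2405 at day 60; without Cst12 it was 1817 to 1971 and then 1996 to 2109. The list's median was -0.10, and its part in the rise of the sperm genes was not tested.

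The element TGACNTCA, which includes the full cyclic AMP response element, is a binding sequence of the spermatid activator CREM. It occurred on either strand in the windows of 8 of 20 called-higher sperm genes with a promoter (40%), in 22 of 75 measured sperm genes (29.3%) and in 7.59% of the genes tested. The 8 genes were Smcp, Oaz3, Akap4, Tnp1, Prm1, Gapdhs, Fscb and Capza3, with differences from 6.15 down to 0.38. Promoters of 3 of them, chosen as the largest riser and the best known nuclear proteins, are shown with the element in capitals.
Smcp promoter, chr2:180861565-180861814 (minus strand): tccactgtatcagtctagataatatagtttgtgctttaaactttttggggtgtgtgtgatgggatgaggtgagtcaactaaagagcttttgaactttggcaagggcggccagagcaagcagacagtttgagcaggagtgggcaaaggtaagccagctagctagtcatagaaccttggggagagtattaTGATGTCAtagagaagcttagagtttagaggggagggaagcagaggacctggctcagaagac
Tnp1 promoter, chr9:82044279-82044528 (minus strand): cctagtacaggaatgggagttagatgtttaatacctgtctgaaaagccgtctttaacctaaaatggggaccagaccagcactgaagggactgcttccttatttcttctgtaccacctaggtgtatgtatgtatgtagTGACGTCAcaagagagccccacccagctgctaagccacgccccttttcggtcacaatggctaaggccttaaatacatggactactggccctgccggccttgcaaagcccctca
Prm1 promoter, chr10:5378490-5378739 (plus strand): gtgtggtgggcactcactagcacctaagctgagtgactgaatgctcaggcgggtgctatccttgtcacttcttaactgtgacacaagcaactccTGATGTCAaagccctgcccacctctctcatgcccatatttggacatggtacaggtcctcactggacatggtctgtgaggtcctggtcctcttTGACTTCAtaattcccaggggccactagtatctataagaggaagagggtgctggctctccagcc
The element starts 62 bases before the start of Smcp and 113 before that of Tnp1, where it is the palindrome TGACGTCA, and at 156 and 64 bases in Prm1. By comparison, TGACNTCA occurred in 1 of the 30 called-higher secretory and defensin genes (3.33%).

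Several of the 20 largest rises were uneven among pools of 1 age. The highest and lowest pools were at least 2-fold apart in 8 of the 20 genes at day 28 (4 pools) and in 5 of the 20 at day 60 (3 pools), against 343 and 138 of 18166 genes overall. Smcp, Lcn9, Lcn8, Cst8, Rgsl2h and Defb20 shared 1 order of the day 28 pools, with replicate 2 highest, then 3, 4 and 1; that order held for 6 of the 20 genes (30%) and for 4.27% of all genes. Replicate 1 was the lowest day 28 pool in 13 of the 20 genes, against 21.5% of all genes. Rgsl2h, related to regulators of G protein signalling, was the most uneven, at 6.36, 10.23, 9.04 and 7.89 before 12.62, 12.49 and 12.49. These orders were noticed after the values were seen.

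Of 29 carnitine, sugar and amino acid transporters, which move small solutes across the epithelium, 14 were higher (48.3%, against 13.8% of all genes), 1 was lower and the median was 0.28. Slc1a1, a glutamate carrier, went from 8.27, 8.23, 8.39 and 8.17 to 9.80, 9.87 and 9.87 (1.58 ± 0.116, adjusted p = 3.95e-07). The sodium-coupled inositol carrier Slc5a3 differed by 0.78 ± 0.0807 and the glucose carrier Slc5a1 by 0.77 ± 0.164. The insulin-responsive glucose carrier Slc2a4 fell from 7.52 ± 0.0824 to 6.93 ± 0.224 (adjusted p = 0.0014). It is also a marker of fat cells, and of 25 adipocyte genes 6 were higher and 2 lower.

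Water and ion transport genes changed in both directions: 14 of 40 genes were higher (35%) and 8 lower (20%), with a median of 0.02. Slc9a3, the apical sodium and proton exchanger of principal cells, went from 7.01, 6.54, 7.24 and 6.34 to 8.85, 8.59 and 8.50 (1.86 ± 0.198, adjusted p = 1.17e-05). The aquaglyceroporin Aqp7 went from 6.36 ± 0.203 to 7.62 ± 0.0707 (adjusted p = 3e-05). Aqp2, the water channel best known from the kidney collecting duct, fell from 8.80, 8.23, 9.15 and 8.90 to 7.62, 7.61 and 7.45 (-1.21 ± 0.203, adjusted p = 0.00055). Gabrp, a chloride channel subunit, fell from 6.59 ± 0.341 to 5.89 ± 0.212 (adjusted p = 0.00455). Aqp5 was uneven at day 60, at 7.37, 6.95 and 5.81 against 5.27 to 5.82 at day 28; its adjusted p was 0.0083 but the ages overlapped.

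Of 30 tight junction genes 7 were higher (23.3%) and 4 lower (13.3%, near the 11.2% of all genes), and of 16 gap junction genes 1 was higher (6.25%) and 3 were lower (18.8%). Cldn10, a claudin that forms ion-selective pores, went from 6.01, 5.95, 6.24 and 6.36 to 7.91, 7.70 and 7.90 (1.70 ± 0.114, adjusted p = 1.98e-07). Cldn6, typical of embryonic epithelia, differed by 0.87 ± 0.116 and the pore-forming Cldn2 by 0.83 ± 0.175. Cldn4, which seals, fell from 9.28 ± 0.0607 to 8.69 ± 0.121 (adjusted p = 0.00208). Gja1, the widespread connexin 43, fell from 10.21, 10.18, 10.17 and 10.30 to 9.81, 9.68 and 9.71 (adjusted p = 0.000611). With each array centred, 1 tight junction gene was called lower, and without day 28 replicate 2 no gap junction gene was called higher.

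Genes of the secretory machinery were higher in part. In the Golgi list 13 of 48 glycosylation genes were higher and 3 lower (median 0.10), and 1 was lower with each array centred. Apart from St6galnac1, its sister enzyme St6galnac2 went from 9.93 ± 0.0966 to 10.83 ± 0.0206 (adjusted p = 1.6e-06) and B4galnt3 from 7.20 ± 0.152 to 8.03 ± 0.0135 (adjusted p = 1.32e-05). Of 49 endoplasmic reticulum folding genes 15 were higher and 2 lower, but the median was 0.02, the summed signal overlapped between ages, and 8 were called higher without day 28 replicate 1 and 9 without day 60 replicate 3. Agr2, a disulfide isomerase needed for mucin folding, differed by 0.99 ± 0.199 and the chaperone cofactor Dnajb9 by 0.61 ± 0.0815. Without day 28 replicate 2, and likewise after quantile normalization, 5 folding genes were called lower, and with each array centred none.

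Enzymes against oxidants rose in number. Of 52 antioxidant and glutathione genes 19 were higher and 4 lower (36.5%, median 0.19). Mgst2, a membrane glutathione transferase, went from 7.50, 8.10, 7.99 and 7.98 to 9.57, 9.87 and 9.78 (1.85 ± 0.16, adjusted p = 1.88e-06). The secreted peroxidase Gpx3 went from 9.57 ± 0.0988 to 10.53 ± 0.288 (adjusted p = 0.000103). Prdx4, the peroxiredoxin of the endoplasmic reticulum, fell by 0.65 (adjusted p = 7.51e-05), and the transferase Gstt2 fell by 0.55. Gstm6l, annotated as like a mu-class glutathione transferase, was among the 20 largest falls, from 8.88, 9.04, 9.11 and 9.35 to 7.33, 7.24 and 7.67 (-1.68 ± 0.119, adjusted p = 2.94e-07).

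Genes of steroid and retinoid handling rose in part. Of 38 steroid receptor, enzyme and androgen-response genes 9 were higher and 3 lower, and 5 were lower without day 28 replicate 2. Sult2b1, which sulphates cholesterol and other sterols, went from 8.26 ± 0.122 to 9.44 ± 0.0777 (adjusted p = 5.74e-07). The androgen-responsive Odc1, the first enzyme of polyamine synthesis, fell from 11.05, 10.90, 11.10 and 11.12 to 10.49, 10.38 and 10.38 (adjusted p = 6.37e-05). Of 27 retinoic acid genes 7 were higher and 2 lower. Rarres1, named for its response to retinoic acid, differed by 1.55 ± 0.147 and Rdh16, a retinol dehydrogenase, by 1.36 ± 0.126 (adjusted p = 4.32e-06 and 3.32e-06).

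Prostaglandin and lipid mediator genes included larger rises. Of 33 members 11 were higher and 1 lower; 3 were lower without day 28 replicate 2. Abcc4, which exports prostaglandins and cyclic nucleotides, went from 6.92, 6.95, 7.42 and 7.28 to 9.08, 9.22 and 9.05 (1.98 ± 0.136, adjusted p = 2.22e-07). Pla2g2a, a secreted phospholipase, differed by 2.74 ± 0.268 (adjusted p = 5.68e-06) but was uneven at day 60, at 8.10, 8.78 and 9.74. The reductase Akr1b8 went from 4.72 ± 0.223, under the background level, to 6.74 ± 0.267 (adjusted p = 3.35e-05).

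Markers of the epithelial cell types gave mixed counts. Clear and narrow cells had 9 of 25 markers higher and 2 lower (4 lower after quantile normalization, none with each array centred), with a median of 0.20 and a summed signal of 9302 to 10330 at day 28 and 11247 to 12242 at day 60. Among them Parm1 went from 8.12 ± 0.106 to 9.16 ± 0.168 (adjusted p = 2.92e-06), and Car4, a membrane carbonic anhydrase, and Cubn, an endocytic receptor, differed by 0.97 ± 0.11 and 0.78 ± 0.149. The 2 markers called lower were Atp6v1b1, from 8.51 ± 0.135 to 8.10 ± 0.132, and Dmrt2, from 7.81 ± 0.146 to 7.47 ± 0.121 (adjusted p = 0.0203 and 0.0201 in limma's test). Of 21 basal cell markers 3 were higher (14.3%) and 2 lower (9.52%), near the 13.8% and 11.2% of all genes. All 21 lay above the background level at both ages. Without day 28 replicate 2 the basal counts were 1 and 5, and 4 were lower after quantile normalization and 1 with each array centred. Principal cell keratins and adhesion genes had 6 of 21 members lower and 2 higher. Krt19 fell from 9.40, 9.41, 9.43 and 9.49 to 8.83, 8.64 and 8.93 (adjusted p = 0.00016), and Krt7 and the mucin Muc1 fell by 0.56 and 0.66. The 2 members called higher were Cdhr5, by 0.89 ± 0.165, and Muc20, by 0.61 ± 0.108 (adjusted p = 0.00118 and 0.000866 in limma's test). Of 21 genes of ciliated cells, which line the efferent ducts next to the epididymis, 3 were higher (14.3%) and 1 lower (4.76%). The share higher is near the 13.8% of all genes, and 1 was higher without day 28 replicate 2.

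Nearly all cell cycle genes measured fell. Of 56 measured members none was higher, also at an unadjusted p under 0.05 in limma's test, and 51 were lower (91.1%, against 11.2% of all genes), 21 of them at least 2-fold, with a median of -0.86. Without day 28 replicate 2, 51 were again called lower, and with each array centred 46. Their summed signal went from between 10334 and 12527 to between 6713 and 6978. In 53 of the 56 the day 60 mean still lay above the background level. Ect2, which positions the cleavage furrow, went from 6.86, 6.73, 7.00 and 7.20 to 5.68, 5.56 and 5.56 (-1.35 ± 0.0957, adjusted p = 2.94e-07). Cdc20, the activator of the anaphase-promoting complex, went from 7.37 ± 0.166 to 6.07 ± 0.0388, and Cdk1, the mitotic kinase, from 7.58 ± 0.198 to 6.31 ± 0.176. Prc1 and Kif20a, which build the central spindle, differed by -1.27 ± 0.136 and -1.28 ± 0.135, and Bub1b, of the spindle checkpoint, by -1.26 ± 0.111; the spindle protein Nusap1 differed by -1.27.

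Of the 20 largest falls 7 were in the cell cycle list, and several others take part in chromatin or division. H1f5, a linker histone, fell from 8.98, 8.96, 9.13 and 9.22 to 7.85, 7.77 and 7.42 (adjusted p = 6.18e-07). Stmn1, which destabilises microtubules, fell from 9.83 ± 0.138 to 8.48 ± 0.245, and Lmnb1, of the nuclear lamina, from 7.96 ± 0.161 to 6.72 ± 0.0864. The largest fall, that of Fam111a, a protease linked to DNA replication, was enlarged by 1 pool: it was 9.20, 9.30, 8.64 and 9.70 at day 28 and 7.97, 8.30 and 5.06 at day 60, and its difference of -2.10 ± 0.559 became -1.08 without day 60 replicate 3 (adjusted p = 0.0143). Gzmf, a granzyme, fell by 1.22 and lost its call without that pool. Pate14 and Spink1l, relatives of secreted sperm-binding proteins and of protease inhibitors, fell from 6.18 ± 0.192 to 4.31 ± 0.213 and from 5.62 ± 0.618 to 3.85 ± 0.268, to under the background level. Il1rn, the interleukin-1 receptor antagonist, also fell to under that level, from 5.23 ± 0.353 to 3.85 ± 0.353 (adjusted p = 0.000407). Depdc1, a protein of dividing cells, and Guca2b, the peptide uroguanylin, differed by -1.37 and -1.25.

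**Figure D4:**
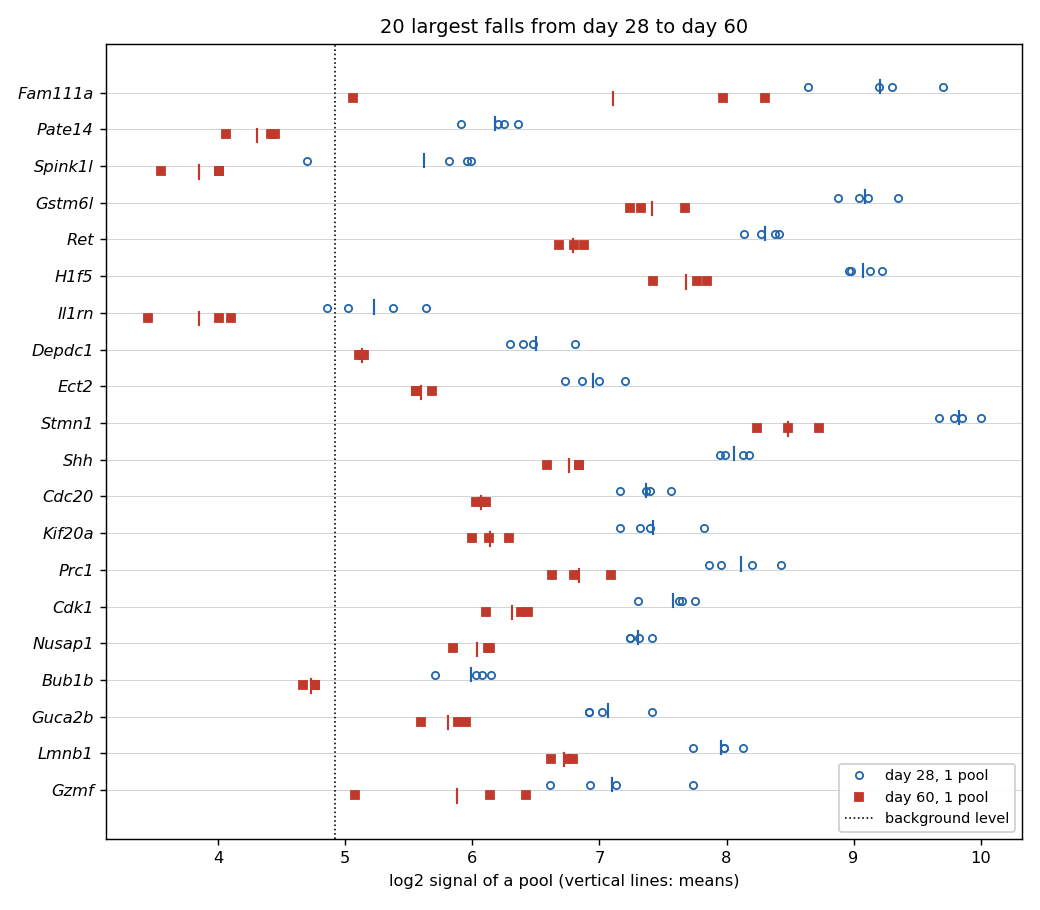
Log2 signal of each pool for the 20 genes with the largest falls; open circles are the 4 day 28 pools, filled squares the 3 day 60 pools, vertical strokes the means and the dotted line the background level of 4.92. Fam111a has day 60 pools from 5.06 to 8.30, and the cell cycle genes such as Cdc20 (6.03 to 6.11) have narrow ones.

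Promoters of cell cycle genes often carry CCAAT boxes, and also the element TTTGAA, which a repressor complex of resting cells recognises. Of the 38 called-lower cell cycle genes with a promoter, 25 held CCAAT on either strand (65.8%, against 37.9% of the genes tested), 22 held TTTGAA (57.9%, against 15.9%) and 16 held both (42.1%, against 6.52%). Among all 42 measured cell cycle genes with a promoter the shares were close to these, at 69%, 54.8% and 40.5%. None of these shares was tested. Promoters of 3 that hold both are shown with every match in capitals. On the opposite strand CCAAT reads ATTGG, and the other element reads TTCAAA; neither motif contains the other.
Cdk1 promoter, chr20:19265043-19265292 (plus strand): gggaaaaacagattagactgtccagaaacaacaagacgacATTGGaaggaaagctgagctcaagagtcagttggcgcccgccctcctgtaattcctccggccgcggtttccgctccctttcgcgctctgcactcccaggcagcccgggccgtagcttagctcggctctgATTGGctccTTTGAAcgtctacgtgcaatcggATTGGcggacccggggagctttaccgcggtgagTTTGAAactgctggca
Prc1 promoter, chr1:143659231-143659480 (plus strand): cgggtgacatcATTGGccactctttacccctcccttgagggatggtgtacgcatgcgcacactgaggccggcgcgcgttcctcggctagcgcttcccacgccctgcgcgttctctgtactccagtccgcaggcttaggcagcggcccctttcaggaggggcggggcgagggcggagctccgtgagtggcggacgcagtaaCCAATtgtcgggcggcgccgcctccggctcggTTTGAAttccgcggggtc
Top2a promoter, chr10:84473094-84473343 (minus strand): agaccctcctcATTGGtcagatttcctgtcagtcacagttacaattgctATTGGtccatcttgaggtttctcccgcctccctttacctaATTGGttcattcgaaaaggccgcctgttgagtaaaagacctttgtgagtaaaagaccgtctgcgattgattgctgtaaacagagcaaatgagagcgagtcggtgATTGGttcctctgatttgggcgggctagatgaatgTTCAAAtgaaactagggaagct
The copy of TTTGAA nearest the start lies 16 bases before it in Cdk1, 18 in Prc1 and 22 in Top2a. Top2a, a topoisomerase chosen for this element, went from 8.37 to 7.29 (-1.08 ± 0.0898, adjusted p = 1.35e-06).

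Many ribosomal protein genes were lower. Of 56 measured 31 were lower and none higher (55.4%, median -0.33), 31 again without day 28 replicate 2 and 22 with each array centred. Rps19 went from 10.48, 10.28, 10.49 and 10.35 to 9.49, 9.54 and 9.66 (-0.83 ± 0.0822, adjusted p = 5.97e-06), Rps2 fell by 0.74 and Rpl10 by 0.72. Their summed signal was 105086 to 110572 at day 28 and 89764 to 93613 at day 60. Of 66 genes of oxidative phosphorylation 15 were lower (22.7%) and 7 higher (10.6%), with a median of -0.08. Among them were Uqcrfs1, Atp5po and Ndufb8, lower by 0.57 to 0.62, and Ndufv3, higher by 0.79 ± 0.101.

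Of 21 imprinted and fetal growth genes 11 were lower (52.4%, against 11.2% of all genes) and 1 was higher, with a median of -0.31. Igf2bp2, which binds the messenger of the growth factor Igf2, went from 6.99, 6.44, 6.99 and 6.88 to 5.61, 6.12 and 5.81 (-0.98 ± 0.137, adjusted p = 0.000133). Plagl1, an imprinted zinc finger factor, fell from 8.60 ± 0.164 to 7.79 ± 0.234 (adjusted p = 0.000108). Dlk1 was the exception, at 6.61 ± 0.266 and then 7.47 ± 0.275 (adjusted p = 0.000608).

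Signalling and patterning genes of the duct changed in opposite directions. The initial segment, the most proximal region, depends on luminal factors from the testis that act through kinase signalling and the ETS factors Etv1, Etv4 and Etv5. Etv5 went from 6.73, 7.10, 6.65 and 6.77 to 7.82, 7.76 and 7.83 (0.99 ± 0.0982, adjusted p = 6.31e-06). Etv4 differed by 0.73 ± 0.106 and Etv1 by 0.55 ± 0.0721, and Dusp5, a phosphatase induced by the same kinases, by 0.89 ± 0.151. Cyp4a8, also of the initial segment list, went from 4.43, under the background level, to 5.40. The 3 largest called falls of the list were those of 3 receptors. Ret fell from 8.38, 8.14, 8.41 and 8.27 to 6.80, 6.88 and 6.68 (-1.51 ± 0.16, adjusted p = 1.13e-05 in limma's test), Fgfr2 by 0.61 and Fgfr3 by 0.49. Of the 30 genes of that list 9 were higher and 7 lower, and 4 were lower without day 60 replicate 3. Of 41 duct patterning transcription factors 5 were higher (12.2%, near the 13.8% of all genes) and 8 lower (19.5%, against 11.2%). Gata2 was among the lower ones (9.05 ± 0.134 to 8.44 ± 0.111, adjusted p = 0.000176).

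Shh, a secreted morphogen of epithelia, was another of the 20 largest falls, from 7.99, 7.95, 8.13 and 8.18 to 6.59, 6.84 and 6.84 (-1.31 ± 0.0884, adjusted p = 2.02e-07). Of 74 Wnt, Notch and BMP genes 10 were higher (13.5%) and 11 lower (14.9%), against 13.8% and 11.2% of all genes. With each array centred 7 of them were lower. Bmp7 fell from 9.81 ± 0.0556 to 9.18 ± 0.142 (adjusted p = 5.65e-05), the Wnt inhibitors Dkk1 and Notum by 0.86 and 0.60, while the inhibitor Sfrp4 differed by 1.37 ± 0.228 (adjusted p = 0.000521).

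Of 56 collagen and matrix genes 16 were lower (28.6%, against 11.2% of all genes) and 8 higher (14.3%, near the 13.8% of all genes), with a median of -0.14, and 10 were lower with each array centred. Postn, secreted by fibroblasts where tissue is remodelled, fell from 10.14, 10.02, 10.00 and 10.07 to 9.09, 9.33 and 9.28 (-0.82 ± 0.0917, adjusted p = 1.8e-05), and Serpinh1, the collagen chaperone, by 0.74. Col12a1, a collagen of fibril surfaces, went from 8.79 ± 0.265 to 9.91 ± 0.0727 (adjusted p = 1.11e-05), and Mfap5 of microfibrils from 9.38 ± 0.123 to 10.28 ± 0.0833. Of 28 matrix proteases and inhibitors 6 were higher (21.4%) and 5 lower (17.9%). Without day 60 replicate 3, 3 were higher. Mmp7 differed by 1.59 ± 0.576 without passing the test (adjusted p = 0.0572; named after its value was seen).

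Among stromal cell markers, 4 of 22 smooth muscle genes were higher (18.2%) and 2 lower (9.09%), against 13.8% and 11.2% of all genes. Pln, the regulator of the calcium pump in muscle, went from 5.52, 5.26, 5.51 and 5.23 to 6.40, 6.65 and 6.57 (1.16 ± 0.13, adjusted p = 1.88e-05), and Oxtr, the oxytocin receptor, differed by 0.85 ± 0.138. The 2 falls were Hspb7 and Tpm1, by 0.76 and 0.39 (adjusted p = 0.00278 and 0.00218 in limma's test). The summed smooth muscle signal overlapped between ages, at 17532 to 20165 at day 28 and 18796 to 19470 at day 60. Of 23 endothelial genes 4 were higher (17.4%, against 13.8% of all genes) and none lower. Of 19 mesothelial genes 6 were higher (31.6%) and 1 lower (5.26%). Of 30 nerve and Schwann cell genes 7 were higher (23.3%) and 2 lower (6.67%), but the median was -0.10, against -0.02 for all genes. Th, the rate-limiting enzyme of catecholamine synthesis in sympathetic nerves, went from 5.94 ± 0.649, with day 28 replicate 3 highest at 6.84, to 8.30, 7.81 and 7.84 (2.04 ± 0.262, adjusted p = 6.07e-05). Nefm, a neurofilament, fell from 5.55 ± 0.22 to 4.49 ± 0.0756 (adjusted p = 0.000309). Among adipocyte genes Lep, which encodes leptin, went from 4.88, 5.19, 4.96 and 5.59 to 7.08, 6.74 and 6.62 (adjusted p = 1.76e-05); 3 of these genes were called higher without day 60 replicate 1. The summed adipocyte signal was 14493 to 17143 at day 28 and 17460 to 18655 at day 60. Without Thrsp the ranges overlapped, at 9377 to 11805 and 11184 to 12651. The part of attached fat in any result was not tested.

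Immune cell markers were higher in part, with the highest share in macrophages. Of 31 macrophage and monocyte genes 17 were higher and 1 lower (54.8%, median 0.34), and 16 were higher without day 28 replicate 2. Siglec1, a sialic acid receptor of resident macrophages, went from 7.12, 6.97, 7.27 and 6.94 to 8.47, 8.29 and 8.36 (1.30 ± 0.109, adjusted p = 1.44e-06). The haemoglobin scavenger receptor Cd163 went from 5.76 ± 0.109 to 7.02 ± 0.131 (adjusted p = 4.84e-07), and Folr2 differed by 0.95 ± 0.0994. Marco, another scavenger receptor, fell by 0.52 (adjusted p = 0.0128; not called without day 60 replicate 2). The summed macrophage signal was 6430 to 7276 at day 28 and 8753 to 9295 at day 60.

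Lymphocyte lists had fewer members called. Of 34 T and cytotoxic lymphocyte genes 11 were higher and 1 lower, and 7 were higher without day 60 replicate 3; Prf1, the pore-forming protein of cytotoxic cells, differed by 1.09 ± 0.137. Of 20 B and plasma cell genes 6 were higher and none lower, with Cd37 at 7.55 ± 0.207 and then 8.63 ± 0.221. Mast cell and granulocyte genes gave 5 of 26 higher (19.2%) and 3 lower (11.5%, near the 11.2% of all genes). Of the 26, 15 stayed under the background level at both ages. Their summed signal, 2112 to 2376 at day 28, was 1819 to 1937 at day 60. Ltf, lactoferrin of neutrophil granules, which fell by 0.66 (adjusted p = 0.00189), carries that sum: without it the ranges overlapped, at 1232 to 1302 and 1203 to 1298. Cpa3, a carboxypeptidase of mast cells, went from 5.59, 6.09, 5.65 and 5.64 to 7.31, 7.63 and 7.88 (1.87 ± 0.171, adjusted p = 3.09e-06). Of 27 antigen presentation genes 6 were higher and 2 lower, with the co-stimulatory Cd86 higher by 1.03 ± 0.115. None of the 12 red blood cell genes was called by limma, 3 were higher at an unadjusted p under 0.05, and 1 was called higher with each array centred.

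Chemokines and cytokines had 21 of 48 members higher and 3 lower (43.8%, median 0.17). Ido1, which degrades tryptophan and is abundant in the epididymis, went from 5.25, 4.73, 5.37 and 5.08 to 7.80, 7.62 and 8.18 (2.76 ± 0.214, adjusted p = 6.41e-07). Il33, an alarmin of epithelial and stromal nuclei, went from 7.33 ± 0.161 to 8.86 ± 0.0981 (adjusted p = 2.02e-07) and Ccl24, which attracts eosinophils, from 6.09 ± 0.0187 to 7.18 ± 0.127. Of 44 interferon-stimulated genes 7 were higher (15.9%) and 6 lower (13.6%), near the 13.8% and 11.2% of all genes, and 3 were lower with each array centred. Irf7, a regulator of interferon genes, was higher by 1.13 ± 0.125, and Cxcl10, a chemokine induced by interferon, fell by 0.46. Of 40 immediate early genes 10 were higher (25%) and 4 lower (10%, near the 11.2% of all genes). Cholesterol synthesis and handling genes gave 6 of 29 higher (20.7%) and 4 lower (13.8%, against 11.2% of all genes), or 9 and 1 with each array centred. The receptor Scarb1 and the storage enzyme Soat1 were higher by 0.62 ± 0.107 and 0.52 ± 0.088. Idi1, of the synthesis pathway itself, fell by 0.65 (adjusted p = 7.01e-05 in limma's test). In the polyamine and arginine list 4 of 22 were higher (18.2%) and 5 lower (22.7%), from Oaz3 down to Ass1, an enzyme of arginine synthesis, at -0.94.

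**Figure D5:**
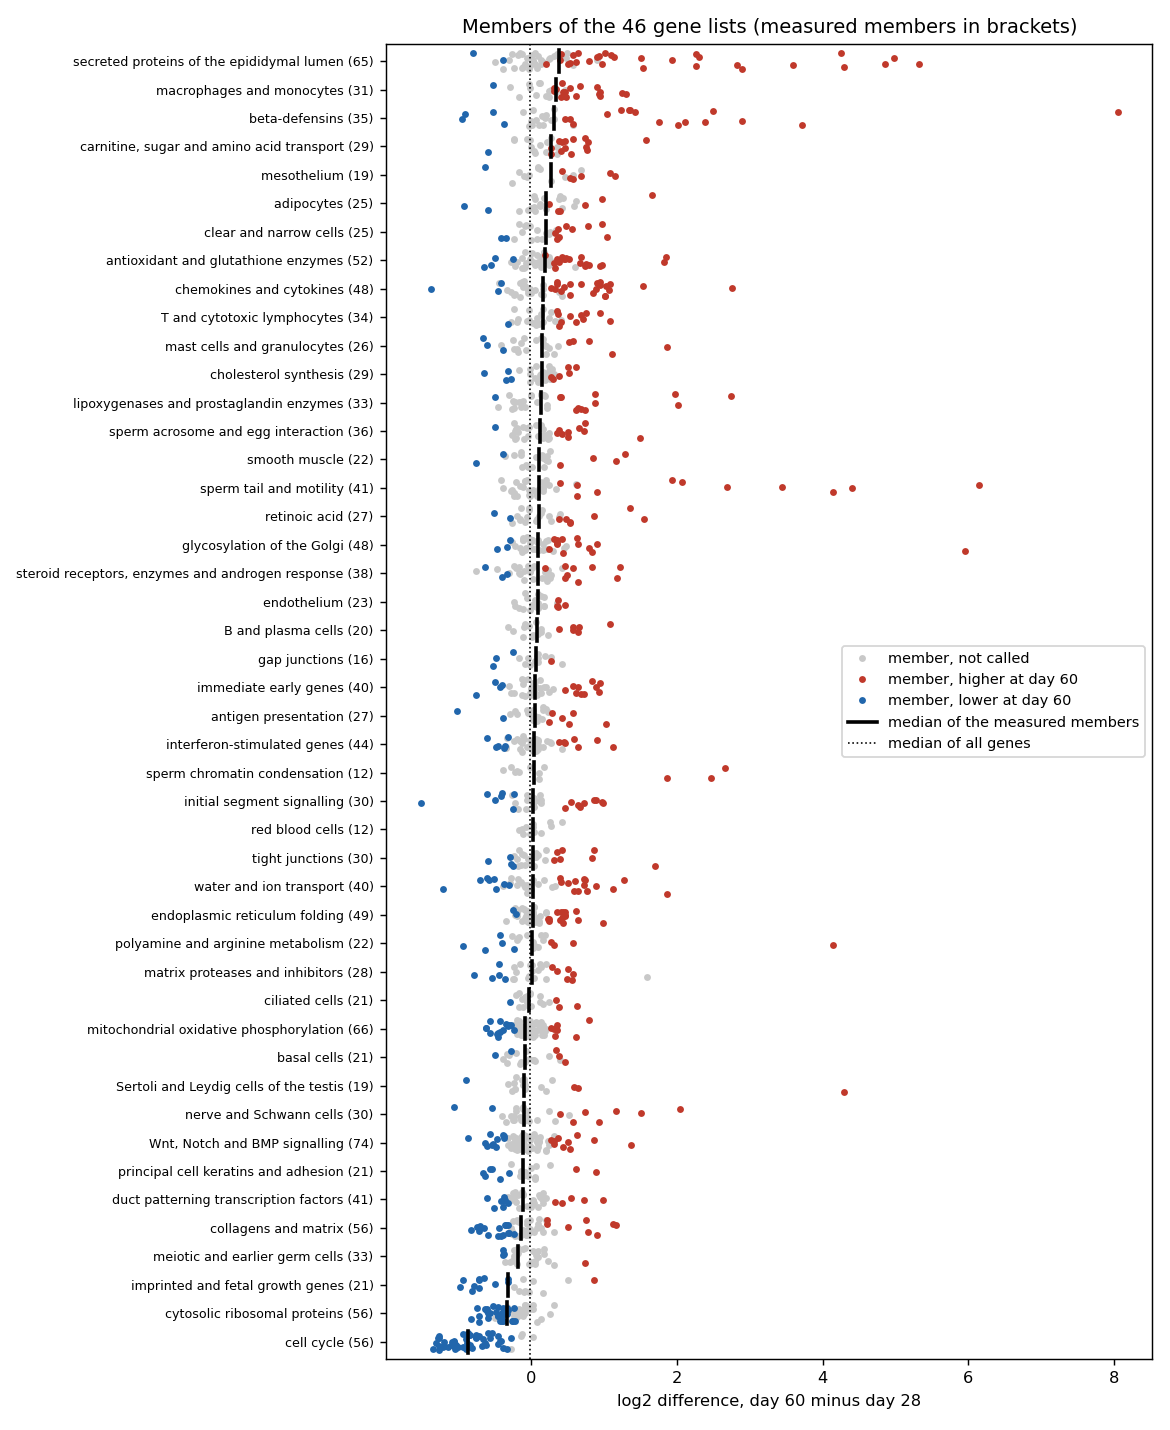
Log2 difference (day 60 minus day 28, horizontal axis) of every measured member of the 46 gene lists, 1 line per list, ordered by median; points are genes, red when called higher, blue when called lower and grey otherwise, black strokes are list medians and the dotted line the median of all genes. Cell cycle genes lie at the bottom with a median of -0.86, ribosomal genes above them at -0.33, and secreted proteins at the top at 0.38 with members above 4.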

How the data were processed

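Pools of whole epididymides were frozen, total RNA was DNase-treated, amplified and labelled with biotin, and each pool was hybridised to 1 array, per the labels' protocols. The deposited values are log2 signals of 36685 transcript clusters that the authors made with RMA and the Transcriptome Analysis Console, per the submitters' processing notes, which give no versions; settings are not given in the sources used here, and no count or depth exists for arrays, so their number limits the precision. RMA as usually run quantile-normalises arrays and summarises probes on the log2 scale, where background compresses differences of dim genes.

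The array annotation gave 1 symbol to 18511 clusters, several to 575 and none to 17599 here; 18394 matched RefSeq. For 291 genes with several clusters the brightest over all arrays was used. The fit used limma 3.58.1 in R 4.3.3 (lmFit, eBayes; median SE 0.111) and was tested on simulated data.

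Named genes are the 20 largest rises and 20 largest falls (adjusted p under 0.05, at least 2-fold, no overlap) and the 3 largest called changes of each of 46 lists (1526 of 1735 members measured), 234 genes in all; the text prints a selection made with their values known. The comparison, lists and rule were chosen with earlier results of these data known. Other normalizations, filters, variance models, blocks, cluster choices and left-out pools were tried.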

Additional observations from a re-analysis of the deposited data

Results flagged for a closer look

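In 11 of the 234 named genes, 1 day 28 pool stood apart from the other 3 by Dixon's ratio at its 95% critical value; chance alone sets a pool apart in about 1 in 20 groups. Replicate 2 was the pool in 5 genes, replicates 1 and 4 in 3 each, and replicate 3 in none.

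Replicate 2 was low for Spink1l, at 4.70 against 5.82 to 5.99 in the others, and for the Wnt co-receptor Lgr5, at 6.68 against 6.92 to 6.95. It was high for the mast cell genes Cpa3, at 6.09 against 5.59 to 5.65, and Tpsb2, at 5.78 against 5.10 to 5.20, and for the glycosyltransferase Mgat3, at 5.0 against 4.71 to 4.74. Cpa3 and Tpsb2 were both called higher at day 60.

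Replicate 1 was low for Defb15, at 8.81 against 9.12 to 9.18, and for Ssr2, of the translocon, at 10.46 against 10.49 in the others. It was high for Nefm, at 5.88 against 5.41 to 5.47. Defb15 was called lower at day 60 with all pools (adjusted p = 0.029 in limma's test), and that call was lost without day 28 replicate 2, 3 or 4 or day 60 replicate 2 or 3.

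Replicate 4 was low for Tex101, at 9.04 against 9.48 to 9.52, and for the mesothelial gene Lrrn4, at 4.90 against 5.53 to 5.64, and high for the connexin Gja5, at 7.11 against 6.97 to 6.98.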

How the results depend on the processing

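Of the 234 named genes 74 kept their call under all alternatives; 52 lost it in at least 1 left-out pool, 160 when a minimum fold of 1.5 was tested, and Eppin alone changed sign, to 0.02 with the mean of a gene's clusters. Leaving out 1 pool gave 1943 to 2397 genes higher and 1488 to 2255 lower, and 276 to 306 and 55 to 79 at least 2-fold higher and lower. Centring each array gave 1104 lower and moved the median of all genes from -0.02 to 0.05. Leaving out the dimmer part of the table, below its median, gave 134 at least 2-fold higher, testing every cluster 447 higher and 196 lower at least 2-fold, and the minimum fold of 1.5 gave 255 higher, 50 lower and 44 at least 2-fold lower; these test fewer or more features or demand a larger change. Deviations of same-numbered pools from their age means did not correlate across genes (r = -0.03, -0.03 and 0.02). Whether equal numbers mark a shared litter or day is not given in the labels, and these correlations cannot decide it. With the replicate block 2258 genes were higher and 1670 lower. When only the 7 pools of day 28 and day 60 were fitted, 2048 were higher and 1478 lower. Weak signals are limited by background.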

Other observations

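Of the 287 genes at least 2-fold higher 204 were in no list, and of the 68 at least 2-fold lower 42. The genes below were chosen among these after their values were seen, partly for their known roles, and larger changes are passed over. Penk, the precursor of enkephalins, went from 8.18 to 11.07 (2.89 ± 0.108, adjusted p = 3.72e-10 in limma's fit), and Tac4, of the tachykinins, from 5.53 to 8.24 (2.71 ± 0.194, adjusted p = 3.15e-07). Ecel1, a membrane endopeptidase, went from 4.53, under the background level, to 7.21. Gpr155, an integral membrane protein, went from 6.43 to 9.28, and Prom2, of membrane protrusions, from 7.33 to 9.72. Gsg1, named for germ cells, went from 4.89 to 7.86 and Dbil5, a protein of late spermatids, from 5.14 to 7.59. Glrx, a glutaredoxin, went from 8.47 to 10.73 and Lipi, a membrane-bound lipase, from 7.67 to 10.05.

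Among the falls, Uhrf1, which maintains DNA methylation, went from 7.62 to 6.41, Gabra2, a GABA receptor subunit, differed by -1.17, Hjurp, the chaperone of centromeric histone, went from 6.82 to 5.68, and Ncapg of condensin from 6.31 to 5.22. The transcription factor Tcf21 went from 9.05 to 7.92 (adjusted p = 7.44e-06), Arnt2 from 8.49 to 7.34 and Mycn from 6.82 to 5.74.

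MicroRNA genes are poorly seen on this array: of 352 tested 256 lay under the background level at both ages, and 7 were higher and 35 lower. Of all genes 13.8% were called higher and 11.2% lower. Among 17599 clusters that the annotation used here does not list, 623 were higher and 996 lower when all clusters were tested. The largest of these rises was cluster 17749159, from 4.34 ± 0.124 to 10.96 ± 0.384, and the largest falls were clusters 17640313 and 17640315, which hold identical values and went from 12.44 ± 0.0522 to 7.44 ± 0.111 (-5.00 ± 0.0821, adjusted p = 1.03e-12).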
